A study of Mus musculus with 78 samples.

Results

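Melanopsin ganglion cells, the retinal output neurons that sense light themselves, were compared with the other ganglion cells processed in the same batch. The comparison took the 3 arrays titled Opn4 against the 3 titled Drd4 and the 3 titled Grik4, which makes 9 of the 78 arrays of the series. All 9 carry the batch label 3, and the members were chosen by title and batch label and not by any measured value. Each array holds RNA of 200 fluorescent cells that were sorted from adult mouse retina after a papain dissociation of 15 min. The Opn4 mice crossed the driver mOpn4-Cre1D4 with the reporter Rosa26-LSL-RFP, and their cells are labelled melanopsin ganglion cells. The Grik4 mice crossed C57BL/6-Tg(Grik4-Cre)G32-4Stuj with the same reporter. The Drd4 mice were Tg(Drd4-EGFP)W18Gsat/Mmnc, a line named for EGFP whose arrays are nevertheless labelled RFP, so the fluorophore used for that sort is not settled by the labels. All 9 arrays share the label of a mixed background, C57BL/6J with FVB/N-Swiss Webster hybrid. Lines from the MMRRC carried a recessive photoreceptor degeneration mutation before they were backcrossed. A Rosa26 reporter switched on by Cre stays on, so the Opn4 and Grik4 sorts can hold cells that expressed Cre only earlier. An EGFP transgene driven by its own promoter has no such permanent switch. The arrays are described as biological triplicates. The labels do not say whether the replicates came from separate animals, and p-values measure only the spread between these arrays.

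Melanopsin is an opsin that signals through a Gq-type G protein and phospholipase C to open TRPC cation channels, as in the photoreceptors of many invertebrates and unlike in rods and cones. The cells that carry it set the circadian clock and drive the pupillary light reflex. They release glutamate together with the peptide PACAP, the product of Adcyap1. The T-box factor Eomes, also called Tbr2, is needed for their formation and upkeep. Drd4-EGFP ganglion cells are known as direction-selective cells that respond to motion. The Grik4 line is described here only by its label, as Grik4 ganglion cells.

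The 3 Opn4 arrays were the most alike, with pairwise Pearson correlations over the tested genes of 0.944 to 0.978. Drd4 replicate 1 correlated at 0.768 to 0.836 with the other Drd4 arrays, and Grik4 replicate 2 at 0.851 to 0.877 with the other Grik4 arrays. These 2 arrays stood apart from their sets. The same 2 arrays also had the longest runs of lowest values in probe set order, 2342 and 1160 values, which carry no ranking of genes. All values below 3.99, the end of the longest such run on any of the 78 arrays, were therefore raised to that floor before logarithms were taken. Genes were tested where 1 or more of the 3 sets averaged above 9.01, the median of all values, which left 12083 of 19301 genes and set 7218 aside as dim. Intensities are given in the deposited arbitrary units, in replicate order, and can be compared between arrays for a gene but not between genes.

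The melanopsin cells differed from both other ganglion lines in the gene of melanopsin and in a set of genes whose number depended on the fit. Against the mean of the Drd4 and Grik4 sets, 30 of 12083 genes were higher in the Opn4 set (0.248%) and 26 were lower (0.215%), at a Benjamini-Hochberg adjusted p below 0.05 in limma with a log2 difference of 1 or more. The gene for melanopsin, the natriuretic peptide gene Nppb, the intermediate filament gene Prph and the cell cycle inhibitor gene Cdkn1c led the higher genes. The GABA genes Slc32a1 and Gad1, the peptide gene Npy and the matrix protein gene Mgp were among the lower ones. Taken singly, 57 genes were higher (0.472%) and 48 lower (0.397%) against Drd4, and 14 were higher (0.116%) and 22 lower (0.182%) against Grik4. Only 9 genes were called higher against each line singly (0.0745%) and 5 lower (0.0414%). Both single comparisons use the same 3 Opn4 arrays. Without Drd4 replicate 1 and Grik4 replicate 2 the counts were 57 higher and 52 lower, and these included 28 of the 30 and 24 of the 26 genes. Leaving out 1 array lowered the counts to 5 higher and 3 lower without Opn4 replicate 2, to 6 and 2 without Opn4 replicate 3, and to 11 and 6 without Drd4 replicate 2. They were 17 and 11 without Grik4 replicate 2 and 29 and 17 without Grik4 replicate 1. Fits that took the spread from more arrays called more genes, 75 higher and 152 lower with the 33 arrays of batch 3 and 131 and 191 with all 78 arrays, and array weights gave 258 and 258. With no test, the Opn4 arrays lay above the other 6 for 386 genes (3.19%) and below them for 403 (3.34%).

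**Figure D1:**
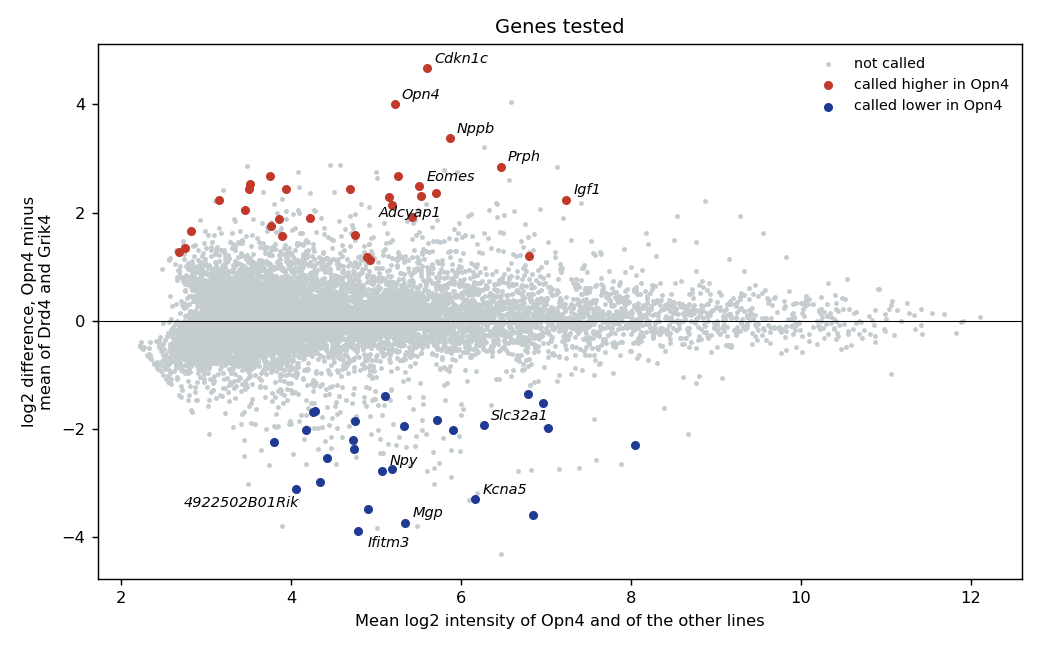
Each point is 1 of 12083 tested genes. The horizontal axis is the mean log2 intensity of the Opn4 set and of the other 2 lines, and the vertical axis is the log2 difference, Opn4 minus the mean of Drd4 and Grik4. Red points are the 30 genes called higher and blue points the 26 called lower, with Cdkn1c at 4.66 and Opn4 at 4.00 at the top and Ifitm3 at -3.88 at the bottom of the called genes. Grey points at similar heights did not pass the adjusted p.

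The melanopsin gene was measured first, as a check of the label. Opn4, the gene of melanopsin, read 109, 155 and 195 on the Opn4 arrays, 4.16, 5 and 12 on the Drd4 arrays and 21.3, 13.9 and 8.98 on the Grik4 arrays. The lowest Opn4 array was 109 and the highest of the other 6 was 21.3, so the groups did not overlap. The log2 difference was 4.00 ± 0.40 (SE, adjusted p = 0.0046) for 3 against 6 arrays, a fold of 15.9 between the deposited values, and it was 4.56 against Drd4 and 3.43 against Grik4 (adjusted p = 0.0038 and 0.022). The table gives no background level for the dim arrays of the other lines, so these differences are read as lower bounds. Without the 2 arrays that stood apart the log2 difference was 3.85 (adjusted p = 0.006).

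Both peptide genes named as markers were higher. Nppb encodes brain natriuretic peptide and read 176, 233 and 161 on the Opn4 arrays, 12, 27.4 and 19.6 on the Drd4 arrays and 34.3, 11.1 and 14.6 on the Grik4 arrays. The log2 difference was 3.37 ± 0.39 (SE, adjusted p = 0.0084), and it passed against each line singly. Adcyap1 read 48.1, 95.4 and 106 on the Opn4 arrays, 15.3, 14.2 and 14.8 on the Drd4 arrays and 17.4, 12 and 27.1 on the Grik4 arrays. Its 3 Opn4 values were all above the other 6, though Opn4 replicate 1 was well below the other Opn4 arrays. The log2 difference was 2.28 ± 0.33 (SE, adjusted p = 0.023). Singly it passed against Drd4 (adjusted p = 0.025) and not against Grik4, where the difference was 2.14 (adjusted p = 0.053).

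Eomes showed a graded pattern. It read 103, 127 and 94.9 on the Opn4 arrays, 15.5, 7.15 and 8.46 on the Drd4 arrays and 63.2, 34.6 and 24.8 on the Grik4 arrays. The Opn4 arrays were highest, the Grik4 arrays intermediate and the Drd4 arrays lowest, with no overlap among the 3 sets. The log2 difference from the mean of both lines was 2.48 ± 0.35 (SE, adjusted p = 0.021). Against Drd4 it was 3.46 ± 0.40 (SE, adjusted p = 0.0077), and against Grik4 it was 1.51 ± 0.40 (SE, adjusted p = 0.22), which did not pass.

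Prph encodes peripherin, an intermediate filament of neurons with long axons. It read 258, 227 and 228 on the Opn4 arrays, 11.4, 20.4 and 16.2 on the Drd4 arrays and 73.3, 81 and 58.2 on the Grik4 arrays. As for Eomes, the Grik4 arrays lay between the other sets without overlap. The log2 difference was 2.84 ± 0.23 (SE, adjusted p = 0.0018), and it passed against Grik4 as well (1.76, adjusted p = 0.037). Igf1, an insulin-like growth factor gene, read 362, 342 and 288 on the Opn4 arrays, 82.3, 55.4 and 28.7 on the Drd4 arrays and 109.8, 65.4 and 122 on the Grik4 arrays. Its log2 difference was 2.24 ± 0.34 (SE, adjusted p = 0.027), with no overlap, but 1.78 against Grik4 alone (adjusted p = 0.13).

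Of the 16 listed melanopsin cell markers, 14 were tested and 7 were called higher (against 0.248% of all tested genes), with none lower. Besides those above, the seventh was Trpc7, a channel gene. The median log2 difference of the tested markers was 1.97, against 0.01 over all tested genes. The Opn4 arrays lay above all 6 others for 8 of the 14, against 3.19% of all tested genes. Against Drd4 singly 7 passed (0.472% of all tested genes) and against Grik4 3 passed (0.116%). The list includes the given markers Opn4, Eomes, Nppb and Adcyap1, and Opn4 is also the gene of the driver. It was chosen with earlier results of these data known, so these shares are no independent test. Anxa2, an annexin gene, was called against Drd4 (1.52) although its difference from both lines was 0.44, and the Grik4 arrays read 115, 124 and 113. The 7 that were not called included Nmb at 1.69 (adjusted p = 0.33), Rasgrp1 at 0.65, Baiap3 at 0.61, Plcb4 at 0.36, Lmo2 at -0.55 and Gem at -1.29. Nmb, a bombesin-like peptide gene, read 68, 111 and 170.1 on the Opn4 arrays, 77.8, 93.4 and 61 on the Drd4 arrays and 30.6, 1.79 and 26.9 on the Grik4 arrays, so the Opn4 and Drd4 arrays overlapped and the Grik4 arrays were lower. Tbx20, a T-box factor of melanopsin cells, and Calcrl, a receptor gene, were dim in all 3 sets. Tbx20 read 6.08, 5.76 and 8.34 on the Opn4 arrays and was not tested.

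**Figure D2:**
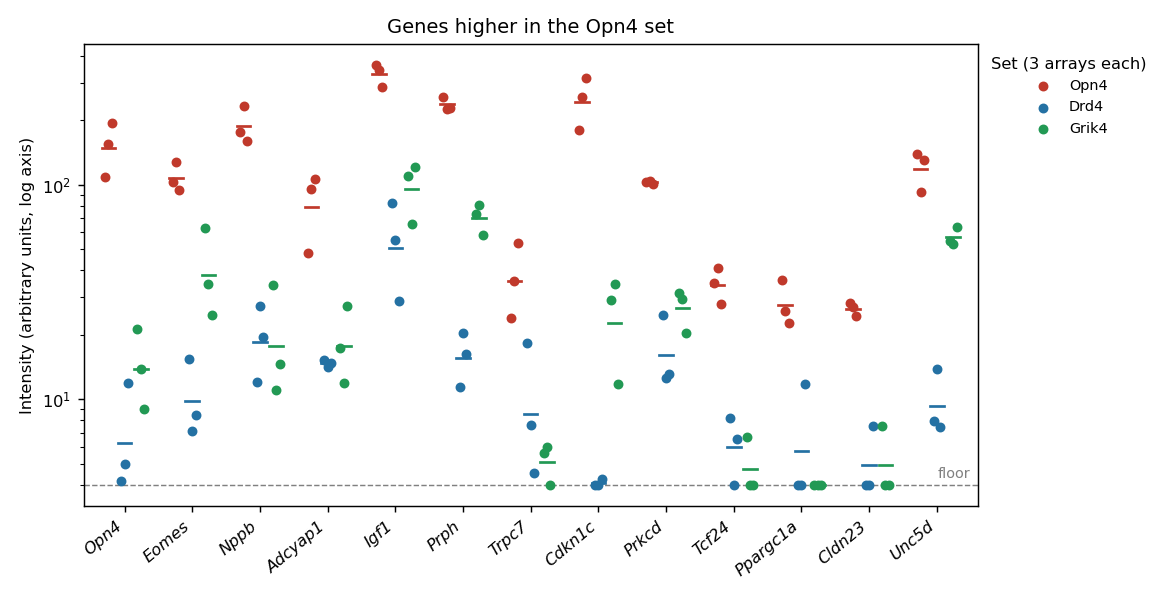
Intensity of 13 genes called higher in the Opn4 set (vertical axis, arbitrary units on a log axis) on each of 9 arrays. Each point is 1 array, short lines are the means on the log2 scale, and the dashed line is the floor of 3.99. The red Opn4 points lie above all blue Drd4 and green Grik4 points for each gene shown. The Grik4 points sit between the other sets for Eomes, Prph, Cdkn1c and Unc5d.

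The 250 bases before the RefSeq start site of the 4 marker genes are shown because these genes were all higher and Eomes encodes a DNA-binding factor. Capitals mark the T-box core GGTGTG and the cAMP response element core TGACG, each searched on both strands. The coordinates are of GRCm38.p6 and the sequences run 5′ to 3′ on the gene's strand. They are at chr14:34600143-34600392 on the minus strand for Opn4, chr9:118477939-118478188 on the plus strand for Eomes, chr4:147985650-147985899 on the plus strand for Nppb and chr17:93198767-93199016 on the plus strand for Adcyap1, the first of 2 RefSeq windows.
Opn4: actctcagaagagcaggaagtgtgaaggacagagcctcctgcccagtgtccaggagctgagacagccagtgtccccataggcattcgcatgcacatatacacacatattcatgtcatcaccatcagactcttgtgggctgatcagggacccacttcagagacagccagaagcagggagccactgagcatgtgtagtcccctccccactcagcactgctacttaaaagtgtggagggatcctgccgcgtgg
Eomes: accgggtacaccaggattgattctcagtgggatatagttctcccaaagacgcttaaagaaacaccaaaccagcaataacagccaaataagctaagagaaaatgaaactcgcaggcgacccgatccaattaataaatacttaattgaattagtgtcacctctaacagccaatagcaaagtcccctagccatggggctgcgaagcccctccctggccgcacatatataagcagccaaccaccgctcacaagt
Nppb: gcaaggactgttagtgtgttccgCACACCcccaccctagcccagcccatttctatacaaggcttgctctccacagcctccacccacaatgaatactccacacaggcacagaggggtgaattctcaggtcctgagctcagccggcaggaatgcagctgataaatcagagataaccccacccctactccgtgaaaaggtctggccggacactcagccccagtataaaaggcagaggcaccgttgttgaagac
Adcyap1: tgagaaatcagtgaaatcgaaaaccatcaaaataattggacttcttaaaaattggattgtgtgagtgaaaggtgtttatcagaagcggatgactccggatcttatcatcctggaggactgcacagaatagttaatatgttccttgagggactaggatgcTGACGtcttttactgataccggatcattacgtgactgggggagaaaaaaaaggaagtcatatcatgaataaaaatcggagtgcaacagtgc
Nppb held 1 T-box core, written here on its reverse strand as CACACC, and Adcyap1 held 1 TGACG. Among 32851 windows of the same length in the RefSeq table, 16.3% held the first motif and 17.8% the second. A match is a description of the letters, and the arrays measure RNA and not binding.

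Downstream of the opsin, few genes of the cascade were called. Of 20 tested genes of melanopsin phototransduction, 2 were higher (Opn4 and Trpc7), 1 was lower (Rgs2), against 0.248% and 0.215% of all tested genes, and the median difference was -0.13. Trpc7 encodes a cation channel of the TRPC family and read 24, 35.7 and 53.4 on the Opn4 arrays, 18.3, 7.58 and 4.55 on the Drd4 arrays and 5.65, 5.99 and 3.97 on the Grik4 arrays. The Opn4 arrays were all above the others, but Drd4 replicate 1, at 18.3, came near the lowest Opn4 array. The log2 difference was 2.43 ± 0.42 (SE, adjusted p = 0.049), just inside the threshold, and 2.76 (adjusted p = 0.0095) without the 2 arrays that stood apart. Trpc7 lost the call in 14 of 23 alternatives, where the adjusted p reached 0.32, and the replicate block gave 0.12. Trpc6, the partner channel, read 64.5, 48.3 and 39 on the Opn4 arrays and overlapped the Grik4 arrays (0.58, adjusted p = 0.46). The G protein genes Gna14, Gnaq and Gna11 differed by 1.26, -0.30 and -0.28 (adjusted p = 0.31, 0.61 and 0.63). Plcb4, the phospholipase C gene of this cascade, differed by 0.36 (adjusted p = 0.57).

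Rgs2, which encodes a regulator that speeds the shut-off of Gq, was lower in the melanopsin cells. It read 82.8, 65 and 62.3 on the Opn4 arrays, 140.4, 110.3 and 133 on the Drd4 arrays and 209, 245 and 289 on the Grik4 arrays. All 3 Opn4 arrays lay below the other 6, and the log2 difference was -1.35 ± 0.20 (SE, adjusted p = 0.025). It passed against Grik4 (-1.82, adjusted p = 0.018) and not against Drd4 (-0.87, adjusted p = 0.12). Rgs2 was highest of the 26 sets in the microglia line Csf2rb2 (363 ± 47.1) and next in Grik4 (248 ± 40.4), and the summed microglia markers were 170 to 391 on the Opn4 arrays, 216 to 498 on the Drd4 arrays and 1219 to 2937 on the Grik4 arrays. Their part in the result was not tested. Its relative Rgs4 had a positive difference of 0.92 that did not pass (adjusted p = 0.22).

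The difference of largest size among the called genes belonged to Cdkn1c, which encodes the cyclin-dependent kinase inhibitor p57. It read 179.8, 257 and 317 on the Opn4 arrays, 2.34, 1.11 and 4.26 on the Drd4 arrays and 29.1, 34.6 and 11.8 on the Grik4 arrays. Its Opn4 values were far above every Drd4 and Grik4 array, and 2 of the Drd4 arrays were below the floor. The highest array of any other set in the series read 182. The log2 difference was 4.66 ± 0.35 (SE, adjusted p = 0.0011), with 5.91 against Drd4 and 3.42 against Grik4. Values raised to the floor make the differences from both lines and from Drd4 lower bounds.

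The other genes called higher against each line singly were Prkcd, Tcf24, Cldn23, Ppargc1a and Usp17ld. Prkcd encodes protein kinase C delta and read 104, 104 and 101 on the Opn4 arrays, 24.8, 12.6 and 13.2 on the Drd4 arrays and 31.5, 29.4 and 20.5 on the Grik4 arrays. The 3 Opn4 arrays were nearly equal and the log2 difference was 2.31 ± 0.27 (SE, adjusted p = 0.0085). Tcf24, a basic helix-loop-helix factor gene, read 34.8, 41 and 27.8 on the Opn4 arrays and at most 8.18 elsewhere (2.68 ± 0.29 SE, adjusted p = 0.0061). Cldn23, a claudin gene, read 28.1, 27 and 24.4 against at most 7.5 elsewhere (2.43 ± 0.29 SE, adjusted p = 0.01). Ppargc1a, the coactivator gene of mitochondrial biogenesis, read 36.2, 25.7 and 22.8 on the Opn4 arrays, with all Grik4 arrays below the floor (2.53 ± 0.35 SE, adjusted p = 0.021). Usp17ld belongs to a family of near-identical deubiquitinase genes whose probes may not be told apart, and read 18.3, 28.1 and 14.2 (2.24 ± 0.24 SE, adjusted p = 0.0061). For Tcf24, Cldn23, Ppargc1a and Usp17ld some arrays of the other lines were at the floor, so these differences are lower bounds. The same 4 genes, and 9 of the 30 higher genes, passed the filter on dim genes through the Opn4 set only, as did 4.65% of all tested genes, so their presence among the tested genes depends on the set in which they are high.

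Of 51 tested genes of oxidative phosphorylation, a process that Ppargc1a is known to raise, 0 were called by limma, 6 had an unadjusted p below 0.05, and the median difference was 0.13. Their summed intensity was 35280 to 37580 on the Opn4 arrays, 34910 to 38810 on the Drd4 arrays and 34800 to 35510 on the Grik4 arrays, and the ranges of all 3 sets overlapped.

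Among the remaining higher genes Unc5d, of the axon guidance list, encodes a netrin receptor and read 139, 93 and 131 on the Opn4 arrays, 7.89, 13.8 and 7.47 on the Drd4 arrays and 54.8, 53.2 and 63.7 on the Grik4 arrays. Its log2 difference was 2.37 ± 0.26 (SE, adjusted p = 0.0065), and 1.06 against Grik4 alone (adjusted p = 0.26). It was the 1 gene called of 67 tested genes of axon guidance and adhesion, where 0.463% of all tested genes were called in either direction. The next genes are named after their values were seen. Serpina3n, a protease inhibitor gene, read 107, 84 and 102 on the Opn4 arrays, 46.7, 46.7 and 28.9 on the Drd4 arrays and 5.62, 5.07 and 6.93 on the Grik4 arrays, a difference of 4.06 from Grik4 and of 1.29 from Drd4 (adjusted p = 0.071 for the latter). Ctxn3, a cortexin gene, read 59.9, 54.6 and 65.8 on the Opn4 arrays and at most 20.9 elsewhere (2.43 ± 0.27 SE, adjusted p = 0.0075). Prkcq encodes protein kinase C theta and read 30.2, 36 and 19.9 against at most 11.2 elsewhere (1.88 ± 0.26 SE, adjusted p = 0.02). Pcdh19, a protocadherin gene, differed by 1.91 ± 0.28 (SE, adjusted p = 0.025), and Lrfn5, a synaptic adhesion gene, by 1.20 ± 0.20 (SE, adjusted p = 0.042).

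Over the 30 higher genes, 18 passed singly against Drd4 only, 2 against Grik4 only, 9 against both and 1 against neither. The Opn4 arrays were all above the other 6 for 27 of the 30, against 3.19% of all tested genes, though the calls use the same values. Across the 26 sets of the series, the Opn4 set had the highest mean for 15 of the 30, which is 50% against 2.99% of all tested genes. This share also rests on the Opn4 values used for the calls and is no independent check. The lead varied, with Serpina3n at 97.6 against 93.9 in the Crh set and Opn4 at 153 against 14.7 in the Grik4 set. A rod set, from the b2 line, was highest for 10 of the 30 and for 2142 of all 12083 tested genes. These 10 include Tcf24, Cldn23, Ppargc1a and Usp17ld, for which the Opn4 set ranked 3, 3, 11 and 14 of 26. For the others, Adipor1, Commd5, Crlf3, Ext1, Gm10209 and Rprl1, it ranked 22, 15, 20, 10, 8 and 19. For Ppargc1a and Usp17ld the PV ganglion set, at 33.3 and 18.1, was near the Opn4 set, at 28.2 and 20.2, and the Drd4 set, at 5.38 and 2.18, and the Grik4 set, at 2.17 and 2.82, were low. The Crh and Chrna3 sets also hold an array with a long run of lowest values (1853 and 1362 values). Tcf24 averaged 5.36 and 7.63 there, Cldn23 8.01 and 6.09, Ppargc1a 3.82 and 7.49 and Usp17ld 6.35 and 1.27. Without the 2 arrays that stood apart these genes differed by 2.73, 2.27, 2.40 and 2.22. The part of the long runs in these calls was not tested.

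Opn4 and the peptide genes were low in all other sets. The mean of Opn4 was 153 ± 42.7 (SD, n = 3) in the Opn4 set and 14.7 ± 6.18 in the Grik4 set, the next highest of 26. Nppb averaged 190.0 ± 37.8 and next 20 ± 12.5 in Grik4 and 19.6 ± 7.66 in Drd4, and those neighbours differed by less than their spread. Adcyap1 averaged 83.2 ± 30.9 and next 18.8 ± 7.68 in Grik4. For Eomes, with 108 ± 16.8 in the Opn4 set and 40.9 ± 20 in the Grik4 set, the third set was the amacrine line Ier5 at 12 ± 2.81. Prph stood at 238 ± 17.4 and at 70.8 ± 11.6 in Grik4. Cdkn1c had its next mean in the cone line Chrnb4, at 102 ± 55.4 against 251 ± 68.6 in the Opn4 set. The other sets carry batch label 1, 2 or 3 or none, and for sets outside batch 3 batch and line cannot be told apart.

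**Figure D3:**
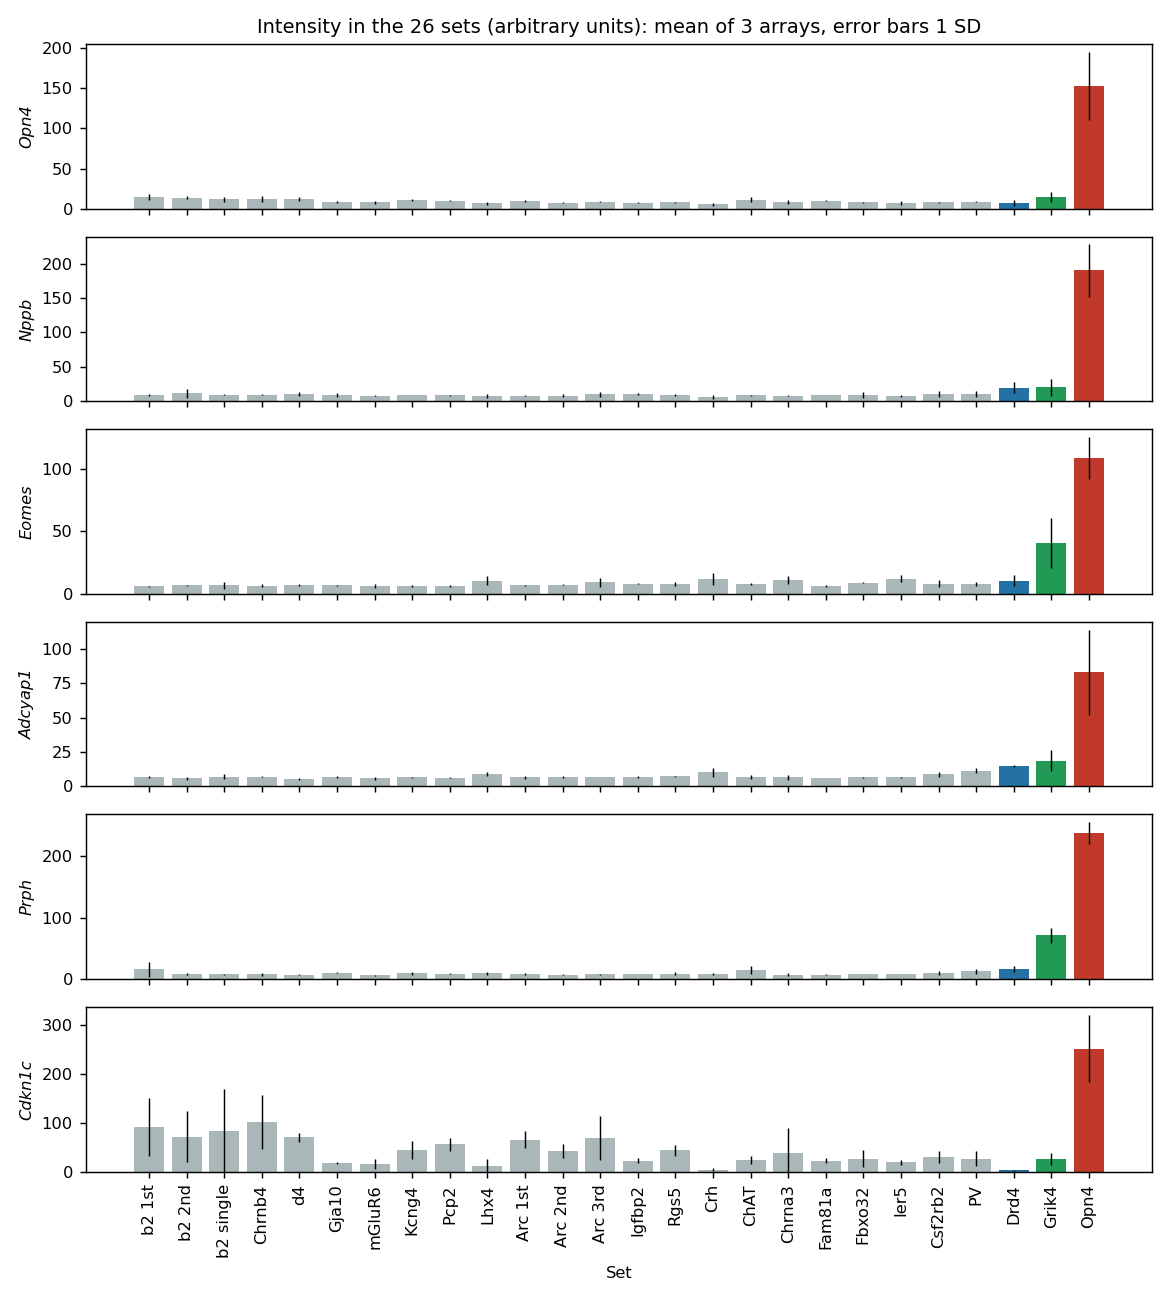
Mean intensity (vertical axes, arbitrary units starting at 0) of 6 genes in each of the 26 sets (horizontal axis); bars are means of 3 arrays and lines are 1 SD. The red Opn4 bar is highest in each panel. Opn4, Nppb and Adcyap1 stand nearly alone, Eomes and Prph have a lower bar in the green Grik4 set, and Cdkn1c is present in several photoreceptor and amacrine sets.

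The PV set, labelled batch 1, is the other ganglion cell set of the series. The 3 Opn4 arrays lay above all 3 PV arrays for 22 of the 30 higher genes, which is 73.3% against 18.4% of all tested genes, and below them for 2. The 30 genes were called for high values on these same Opn4 arrays, so the share is no independent check. Opn4 averaged 8.88 in PV, Nppb 10.7, Eomes 7.61 and Prph 12.3.

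The markers of ganglion cells as a class summed to similar intensities in all 3 sets, though Pou4f1 read lower on the Opn4 than on the Drd4 arrays. Of 18 tested, 0 were called by limma and 0 had an unadjusted p below 0.05, their median difference was 0.09, and their summed intensity was 5116 to 5556 on the Opn4 arrays, 4113 to 6647 on the Drd4 arrays and 4150 to 5197 on the Grik4 arrays. Sncg, encoding gamma-synuclein, read 1789, 1702 and 1513 on the Opn4 arrays, 1095, 1711 and 1661 on the Drd4 arrays and 1495, 1767 and 1461 on the Grik4 arrays, with overlap of all sets. Rbpms, an RNA-binding protein gene used to mark all ganglion cells, read 143, 182 and 163 on the Opn4 arrays and differed by 0.63 (adjusted p = 0.52). Slc17a6, the vesicular glutamate transporter gene of ganglion cells, differed by 0.11 (adjusted p = 0.92). Pou4f1 and Pou4f3, genes of POU-domain factors, were not called (-0.43 and -0.32). Pou4f1 read 9.01, 20 and 17.4 on the Opn4 arrays against 38.2, 34 and 24.5 on the Drd4 arrays, a single difference of -1.11 that did not pass (adjusted p = 0.16).

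Of 35 tested transcription factors of ganglion cell types, Eomes was the 1 called gene, against 0.463% of all tested genes. Of 12 tested markers of direction-selective cells 0 were called by limma against the mean of both lines and 4 had an unadjusted p below 0.05. Against Drd4 singly 2 were lower (0.397% of all tested genes) and 1 was higher (0.472%). Cartpt, the peptide gene CART of direction-selective ganglion cells, read 156, 71.3 and 77.9 on the Opn4 arrays, 878, 1477 and 1942 on the Drd4 arrays and 39.5, 23.1 and 33.9 on the Grik4 arrays. The Drd4 arrays were highest without overlap, the Opn4 arrays intermediate and the Grik4 arrays lowest, with -3.83 ± 0.39 (SE, adjusted p = 0.004) against Drd4. Calb2, encoding calretinin, read 333, 368 and 424 on the Opn4 arrays, 926, 1265 and 1789 on the Drd4 arrays and 504, 462 and 450.5 on the Grik4 arrays, and differed by -1.78 ± 0.23 (SE, adjusted p = 0.012) from Drd4 and by -0.34 from Grik4 (adjusted p = 0.75). Necab2, a neuronal calcium-binding protein gene that is not in the direction-selective list, was higher, with 1.99 ± 0.25 (SE, adjusted p = 0.01) against Drd4.

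The genes named for the other drivers did not mark their lines. The Drd4 gene read 8.81, 1.27 and 0.99 on the Drd4 arrays and was dim in all 3 sets. The Grik4 gene read 9.08, 6.87 and 5.61 on the Grik4 arrays, below the 7.79, 9.44 and 9.01 of the Opn4 arrays on average, and was dim as well. Neither was tested, and neither checks the label of its line. The Opn4 gene does check the label of the Opn4 arrays.

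Slc32a1 and Gad1, genes of inhibitory transmission, were lower in the melanopsin cells than in the mean of the Drd4 and Grik4 sets. Slc32a1 encodes the vesicular transporter for GABA and glycine and read 53.2, 39.4 and 29.6 on the Opn4 arrays, 137, 112 and 76.9 on the Drd4 arrays and 188, 208 and 256 on the Grik4 arrays. The groups did not overlap and the log2 difference was -1.93 ± 0.26 (SE, adjusted p = 0.02). Singly it passed against Grik4 (-2.44, adjusted p = 0.018) and not against Drd4 (-1.42, adjusted p = 0.077). Gad1, the gene of a GABA-synthesising enzyme, read 21.5, 11.3 and 12.1 on the Opn4 arrays, 49.6, 34.8 and 20.8 on the Drd4 arrays and 73.4, 84.2 and 81.6 on the Grik4 arrays. Opn4 replicate 1 overlapped Drd4 replicate 3, and the log2 difference was -1.84 ± 0.32 (SE, adjusted p = 0.049). Gad2, for the second such enzyme, differed by -0.34 (adjusted p = 0.72). The PV ganglion set, labelled batch 1, averaged 52.3 for Slc32a1 and 16.3 for Gad1, close to the 40.7 and 15.0 of the Opn4 set. A low level of these 2 genes was thus not particular to the melanopsin cells. Slc32a1 and Gad1 were the 2 called genes of 11 tested amacrine cell markers (0.215% of all tested genes were lower) and of 30 tested genes of vesicle release and transmitter transport. The summed amacrine markers were 248 to 312 on the Opn4 arrays, 429 to 760 on the Drd4 arrays and 516 to 668 on the Grik4 arrays, and their part in the result was not tested. In sorted pools, fewer cells of a type and less RNA per cell cannot be told apart.

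Npy, the neuropeptide Y gene, was lower in the melanopsin cells than in the Drd4 and Grik4 sets, which also differed from each other. It read 13.9, 14 and 11 on the Opn4 arrays, 43.2, 31.7 and 48.7 on the Drd4 arrays and 146, 169 and 280.1 on the Grik4 arrays. All 3 sets were separate, and the log2 difference was -2.77 ± 0.27 (SE, adjusted p = 0.004), passing against each line singly. The PV ganglion set, labelled batch 1, averaged 16.7 against 13.0 in the Opn4 set, so a low Npy level was not particular to the melanopsin cells. Npy was highest of the 26 sets in the starburst amacrine set ChAT (1225 ± 67.7), the set that also had the highest amacrine sum, and the amacrine sums given above were lower on the Opn4 arrays than on all 6 others. Their part in the Npy result was not tested. Of 29 tested neuropeptide genes, 2 were higher, Nppb and Adcyap1, and 1 was lower, against 0.248% and 0.215% of all tested genes, with a median difference of 0.05. Penk, the enkephalin gene, read 4.96, 4.34 and 6.24 on the Opn4 arrays and 64.6, 19.8 and 51 on the Drd4 arrays, a difference that passed against Drd4 alone (-2.97, adjusted p = 0.041). Gal, the galanin gene, differed by 1.42 and did not pass (adjusted p = 0.12).

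4922502B01Rik and Cbln2 were also lower against each line singly. The first, with no role given here, read 6.14, 6.31 and 4.71 on the Opn4 arrays, 81.5, 112 and 67.9 on the Drd4 arrays and 26.9, 34.1 and 24.4 on the Grik4 arrays, a log2 difference of -3.11 ± 0.23 (SE, adjusted p = 0.0011). Cbln2, which encodes a cerebellin that organises synapses, read 14.1, 10.4 and 11.1 on the Opn4 arrays, 37.3, 37.2 and 84.6 on the Drd4 arrays and 69.7, 58 and 105 on the Grik4 arrays, a difference of -2.37 ± 0.32 (SE, adjusted p = 0.02). Neither showed overlap between the Opn4 arrays and the others. Of the 26 sets, the first was highest in the amacrine set Crh (273) and Cbln2 in the amacrine set Arc 1st (885). The amacrine sums given above were lower on the Opn4 arrays than on all 6 others, and their part in these results was not tested. In the PV ganglion set the 2 genes averaged 34.6 and 14.6, against 5.72 and 11.9 in the Opn4 set. Kcna5 encodes a voltage-gated potassium channel and was the 1 called gene of 51 tested potassium channel genes, against 0.463% of all tested genes. It read 55.1, 15.6 and 14.1 on the Opn4 arrays, 517, 208 and 158 on the Drd4 arrays and 157, 226 and 214 on the Grik4 arrays, with Opn4 replicate 1 above the other Opn4 arrays, and a difference of -3.29 ± 0.50 (SE, adjusted p = 0.027). It was highest in the bipolar set Lhx4 (679 ± 108), which also had the highest bipolar sum, and the bipolar sums were 955, 387 and 318 on the Opn4 arrays, 1701 to 5512 on the Drd4 arrays and 844 to 2031 on the Grik4 arrays. In the PV ganglion set Kcna5 averaged 19.5, against 28.3 in the Opn4 set. The part of bipolar cells in the result was not tested.

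**Figure D4:**
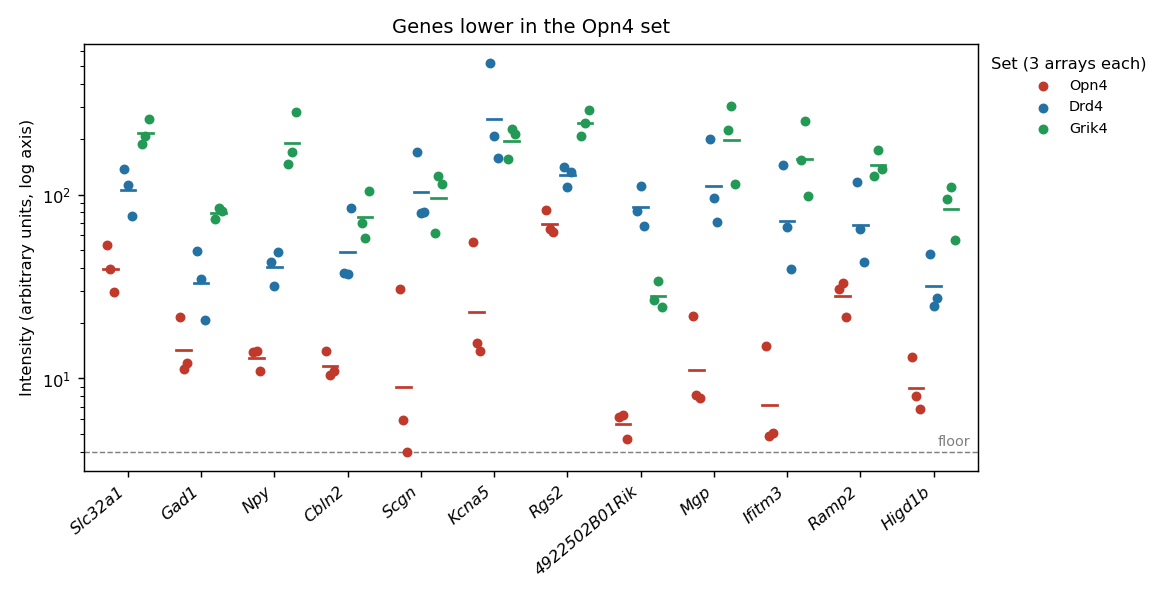
Intensity of 12 genes called lower in the Opn4 set (vertical axis, arbitrary units on a log axis) on each of 9 arrays. Each point is 1 array, short lines are the means on the log2 scale, and the dashed line is the floor of 3.99. The red Opn4 points lie below the others for each gene but Gad1, where 1 Opn4 array overlaps 1 Drd4 array. For Scgn, Kcna5, Mgp and Ifitm3 a single red point, Opn4 replicate 1, lies above the other 2.

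Single markers of blood vessel cells were called lower: Ramp2 of 21 tested endothelial markers and Higd1b of 11 tested pericyte and smooth muscle markers, where 0.215% of all tested genes were lower. Mgp and Ifitm3 are in no list and are given as 2 of the 5 genes called lower against each line singly. Mgp, a matrix protein gene, read 22, 8.15 and 7.81 on the Opn4 arrays, 199, 96 and 71.3 on the Drd4 arrays and 224, 304 and 114 on the Grik4 arrays, a log2 difference of -3.73 ± 0.47 (SE, adjusted p = 0.014). Ifitm3, an interferon-induced membrane protein gene, read 15.1, 4.88 and 5.08 on the Opn4 arrays, 144, 66.4 and 39.3 on the Drd4 arrays and 155, 252 and 98.4 on the Grik4 arrays, a difference of -3.88 ± 0.51 (SE, adjusted p = 0.016). Both passed against each line singly and neither showed overlap. Ramp2, a receptor partner abundant in endothelium, differed by -1.84 ± 0.32 (SE, adjusted p = 0.049), and Higd1b, a pericyte gene, by -2.53 ± 0.33 (SE, adjusted p = 0.016). Ramp2 was the 1 called gene of 28 tested neuromodulator receptor genes as well.

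The summed endothelial markers were 386 to 670 on the Opn4 arrays, 686 to 1901 on the Drd4 arrays and 1447 to 2755 on the Grik4 arrays. All 21 tested members had negative differences, with a median of -0.79, and 1 was called. The pericyte and smooth muscle sums were 96.2 to 164, 240 to 411 and 425 to 727 in the same order, and 1 of 11 tested members was called. Cldn5, the defining endothelial tight junction gene, read 100.2, 11.4 and 7.01 on the Opn4 arrays, 522, 241 and 99.3 on the Drd4 arrays and 755, 943 and 443 on the Grik4 arrays and did not pass (-4.31 ± 0.81 SE, adjusted p = 0.064). Opn4 replicates 2 and 3 were thus near the lowest level of Cldn5, while Opn4 replicate 1 reached the lowest Drd4 array. The part of these cells in the lower genes was not tested.

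Müller glia and bipolar markers were highest on Drd4 replicate 1, and on Opn4 replicate 1 they reached into the Grik4 range. The Müller glia sums were 2586, 860 and 532 on the 3 Opn4 arrays, 2731 to 10500 on the Drd4 arrays and 1724 to 5398 on the Grik4 arrays. Their median difference was -1.75 and 0 of 18 tested members were called by limma, though 14 had an unadjusted p below 0.05. Glul, the glutamine synthetase gene, read 422, 59.5 and 34.1 on the Opn4 arrays, 2267, 714 and 296 on the Drd4 arrays and 519.5, 1057 and 161 on the Grik4 arrays, with wide spread within each set (-2.64, adjusted p = 0.31). The bipolar sums were 318 to 955, 1701 to 5512 and 844 to 2031, all 17 tested members had negative differences with a median of -1.68, and Scgn was called. Scgn, encoding the calcium sensor secretagogin, read 30.8, 5.94 and 3.93 on the Opn4 arrays, 171, 79.7 and 80.4 on the Drd4 arrays and 61.4, 127 and 115 on the Grik4 arrays, a difference of -3.47 ± 0.60 (SE, adjusted p = 0.049). Cplx3, a complexin gene named after its values were seen, read 113, 17.8 and 18.5 on the Opn4 arrays, 922, 406 and 277 on the Drd4 arrays and 216, 536 and 343 on the Grik4 arrays, a difference of -3.58 ± 0.63 (SE, adjusted p = 0.0498). Both Scgn and Cplx3 lost the call without the 2 arrays that stood apart, with differences of -3.19 (adjusted p = 0.068) and -3.18 (adjusted p = 0.064). In the PV ganglion set Scgn averaged 4.47 and Cplx3 9.43, against 13.6 and 49.9 in the Opn4 set.

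Microglia markers separated the Grik4 arrays. Their sums were 170 to 391 on the Opn4 arrays, 216 to 498 on the Drd4 arrays and 1219 to 2937 on the Grik4 arrays, against 17980 on average in the microglia line Csf2rb2. The Opn4 and Drd4 ranges overlapped. Of 18 tested members 0 were called by limma against the mean of both lines and 9 had an unadjusted p below 0.05. Singly, 1 was lower against Grik4 (0.182% of all tested genes) and 1 was higher against Drd4 (0.472%). C1qa, a complement gene of microglia, read 17.6, 19.7 and 6.48 on the Opn4 arrays and 88.9, 237 and 139 on the Grik4 arrays. B2m, a class I antigen subunit gene named after its values were seen, was called lower (-2.29 ± 0.38 SE, adjusted p = 0.044), and it averaged 2922 in the microglia line. The microglia line had the highest mean of 26 sets for 4 of the 26 lower genes, for 2 of the 30 higher genes and for 1338 of all 12083 tested genes. The 2 higher genes were Prkcd, at 221 against 103 in the Opn4 set, and Lsp1, at 258 against 48.1. Without genes at least 2 log2 units higher in the microglia line than in the Opn4 set, 29 of the same calls were higher and 22 lower. No new fit was made, and the filter uses the Opn4 values behind the calls. These counts therefore do not show the part of microglia, which was not tested.

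The other lists held few calls as well. Of 9 rod, 9 cone, 7 horizontal, 7 astrocyte and 11 retinal pigment epithelium markers tested, 0 were called by limma against the mean of both lines. Of these, 3, 1, 1, 2 and 4 had an unadjusted p below 0.05. Singly, 1 rod marker was higher against Drd4 (0.472% of all tested genes). The astrocyte sums were highest on the Opn4 arrays, at 1606 to 1746 against 1007 to 1363 on the Drd4 arrays and 1205 to 1519 on the Grik4 arrays, and the Opn4 set had the highest mean sum of the 26 sets, 1678. Aldoc, an aldolase gene, made up most of these sums, reading 1522, 1672 and 1611 on the Opn4 arrays, and was the 1 of 7 tested astrocyte markers with a positive difference (0.47, adjusted p = 0.15). The rod sums were 175 to 676 on the Opn4 arrays, 768 to 4281 on the Drd4 arrays and 433 to 992 on the Grik4 arrays, and 9 of the 17 measured rod genes, including the phosphodiesterase genes Pde6a, Pde6b and Pde6g, were at or below the floor on all 3 Opn4 arrays. Grik4 replicate 2 had the highest pigment epithelium sum, 3135, against 134 to 251 on the Opn4 arrays. Of 21 tested calcium-binding protein genes Scgn was the 1 called. Of 25 immediate early and stress genes, 0 were called by limma, and 3 had an unadjusted p below 0.05.

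**Figure D5:**
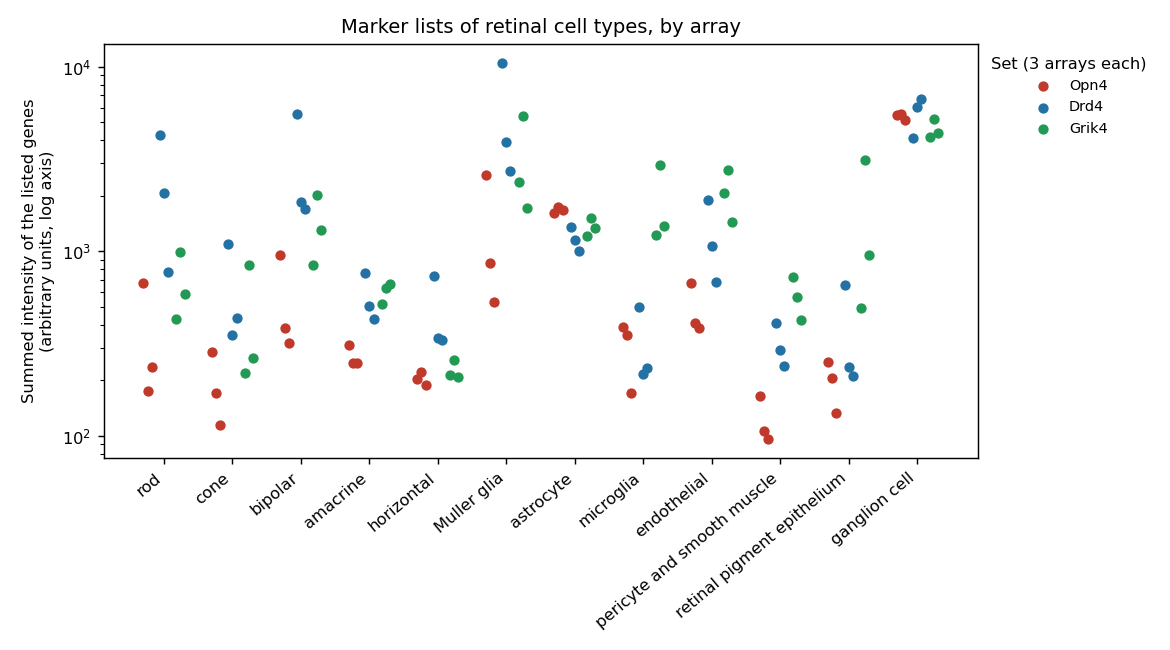
Summed intensity of the listed markers of 12 cell types (vertical axis, arbitrary units on a log axis) on each of 9 arrays; each point is 1 array. The ganglion cell sums overlap between the 3 sets, at 4113 to 6647. The red Opn4 points are lowest for pericyte and endothelial markers, and the green Grik4 points are highest for microglia.

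Taken singly, the 26 lower genes divided between the lines. Of these, 8 passed against Drd4 only, 11 against Grik4 only, 5 against both and 2 against neither. The Opn4 arrays were all below the other 6 for 24 of the 26, against 3.34% of all tested genes, though the calls use the same values. The Grik4 set had the highest mean of 26 sets for 5 of them and the Drd4 set for 1, against 413 and 934 of all 12083 tested genes. The 3 Opn4 arrays lay below all PV arrays for 8 of the 26 (30.8%, against 13.0% of all tested genes) and above them for 5 (19.2%, against 18.4%). These shares also rest on the Opn4 values used for the calls.

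Few receptor and channel genes were called. Of 22 tested glutamate receptor genes, 13 GABA and glycine receptor genes and 9 nicotinic and muscarinic receptor genes, 0 were called by limma against the mean of both lines, with medians of -0.18, -0.41 and 0.03 and with 2, 3 and 0 genes at an unadjusted p below 0.05. Of 24 tested sodium, calcium, HCN and TRP channel genes, Trpc7 was the 1 called. Ramp3, a partner of the calcitonin receptor family, read 243, 219.5 and 189.7 on the Opn4 arrays, 71.8, 24.9 and 21.9 on the Drd4 arrays and 141, 191 and 226 on the Grik4 arrays. Its Opn4 and Grik4 arrays overlapped and the Drd4 arrays were lower, with 2.67 ± 0.42 (SE, adjusted p = 0.027) against Drd4 alone. Kcnab3, a potassium channel subunit gene, likewise passed against Drd4 only (1.70, adjusted p = 0.047). Crhr1, the receptor gene for corticotropin-releasing hormone, read 109.6, 76.8 and 79 on the Opn4 arrays, 46.2, 19.1 and 32.9 on the Drd4 arrays and 20.6, 31.7 and 51.8 on the Grik4 arrays, with the Opn4 arrays above all others, and did not pass (1.47 ± 0.36 SE, adjusted p = 0.15).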

How the data were processed

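The 9 arrays were analysed from the deposited table of 22347 probe sets on 78 arrays. It holds 1 intensity per probe set and array on a linear scale, from 0.0238 to 5770, as deposited by the authors. RMA, the package oligo, R 2.11.1 and mm9 are listed in the submitters' processing notes with no settings. The sorted values of all columns are identical, as quantile normalisation gives, so a shift shared by most genes of an array cannot be seen. A probe set was named where the platform table gave it 1 gene symbol (19446; 735 had several and 2166 were not listed), and the brightest probe set on average stood for a gene.

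Values were raised to the floor, taken to log2 and fitted in limma 3.58.1 (R 4.3.3) with 1 mean per set and a trend in the prior variance, and p-values were adjusted by Benjamini-Hochberg over 12083 genes. Named genes were the given markers and driver genes, the largest differences called against each line singly without overlap, and called or defining members of fixed lists. Members and lists were chosen with earlier results of these data known. On simulated arrays of this size, 74% of 200 genes changed by 2 log2 units were recovered, with 8 false calls. The simulated noise was normal and independent, with the same spread on every array of a gene and no floor. The real arrays differed in spread, so these figures may not hold for them. Alternatives covered the floor, filter, normalisation, probe sets, arrays in the fit, array weights, a replicate block and leaving out arrays. Leaving out both arrays that stood apart, and fitting all 78 arrays without a floor, were added after seeing the data. Residuals of arrays with the same replicate number correlated at -0.021 on average (-0.361 to 0.295), so the numbers were not used as pairs. Promoter windows came from RefSeq (GRCm38.p6). No reads or scanner files were used here, and the number of arrays limits the precision.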

Additional observations from a re-analysis of the deposited data

How the results depend on the processing

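The counts, in the order higher, lower, higher in both single comparisons, lower in both, called against Drd4 and called against Grik4, were 30, 26, 9, 5, 105 and 36. Wider fits gave more calls: 75, 152, 29, 28, 398 and 203 with the 33 batch 3 arrays, 131, 191, 43, 75, 655 and 295 with all 78 arrays, and 148, 180, 39, 71, 672 and 273 with all 78 and no floor. Array weights, whose estimate stopped before convergence, gave 258, 258, 41, 63, 1138 and 228. Without both arrays that stood apart they were 57, 52, 14, 7, 191 and 57. The replicate block, on numbers that do not pair the arrays, gave 14, 16, 2, 3, 27 and 20. A filter at 4 times the median gave 41 lower and 10 lower in both; a floor at the median gave 8 lower in both and 63 against Grik4. With no filter 13 were lower, 3 and 1 passed in both, and 58 and 12 singly; with no floor 16 were lower and 4 higher in both. Leaving out 1 array gave 5 to 35, 2 to 36, 0 to 18, 0 to 9, 12 to 113 and 2 to 90. Where a count was 0 in limma, without Opn4 replicate 2 or 3 or without Grik4 replicate 2, 67 to 86 genes still had an unadjusted p below 0.05 in both comparisons. The cause of these changes was not tested. Over the 56 called genes and their alternatives, 903 values kept the call, 372 lost it and 0 reversed. Opn4, Cdkn1c, Prph, Npy, Serpina3n and 4922502B01Rik kept it in 23 of 23 alternatives, Eomes in 18, Trpc7 in 9 and Scgn in 10. Cyclic loess, median centring and testing every probe set left all 6 counts within 1.5 times. Values below 3.99 carry no order, which limits differences of dim genes.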
